A study of Danio rerio with 12 samples.

Results

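The genes described here are 5 zebrafish antigen presentation genes, cd74a, cd74b, mhc2dab, ciita and b2m. They were taken by symbol from tables of 32047 Ensembl gene identifiers, and 5 of 5 were found. They were chosen by their measured levels in ZKS cells, pericytes and sinusoids. Those values are therefore a description without a test, and tests on the members are given only for the gata2a+ runx1+ cells.

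MHC class II molecules carry peptides from taken-up protein to the surface of antigen-presenting cells, where CD4 T cells read them. In mammals the invariant chain CD74 fills the groove of a new class II molecule and escorts it to the endosome, where cathepsins cut it away, and CIITA switches the class II genes on. Class I molecules instead show peptides made in the cell itself, are held together by beta-2-microglobulin and occur on most cell types. In the kidney marrow, the blood-forming organ of the adult fish, class II genes are best known from B cells, macrophages and dendritic cells.

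The data are 12 Quartz-seq libraries in 6 groups of 2, all labelled as from wild-type adult fish and sorted from the kidney. Quartz-seq copies and amplifies polyadenylated RNA from small samples. The niche set held ZKS cells, pericytes (pdgfrb in their titles) and sinusoids (high Ac-LDL in theirs). A cultured zebrafish kidney stromal line also bears the name ZKS, and the labels do not say whether these cells had been cultured. The second set held gata2a+ runx1+ cells, here called DP cells: co-cultured with ZKS cells with both IWR-1-endo and Thpo added, co-cultured with ZKS cells alone, or uncultured. IWR-1-endo is a small-molecule inhibitor of Wnt signalling and Thpo is thrombopoietin, a blood cytokine. Values are CPM, counts scaled to a common library total, which are not adjusted for transcript length, so levels are compared between libraries and not between genes. Niche CPM were given to 2 decimals and DP CPM to 1, so the sets were treated as processed separately and tests were run only within a set.

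The niche depth, recovered from the CPM steps, was 9260867 and 9880702 reads in ZKS cells, 7006341 and 6984492 in pericytes and 13372200 and 16242092 in sinusoids. The DP depth is unknown, and of 46 housekeeping identifiers 6 to 9 were listed at 0 in each DP library, so a DP gene at 0 is described as listed at 0 and no more. The niche libraries had 1 to 4 of them at 0, and some, such as HPRT1, were near 0 in every library of both sets. PDGFRB was at 31.0 and 31.6 CPM in ZKS cells, with 125 and 124 CPM in pericytes and 1.2 and 3.14 in sinusoids. PDGFRA, a gene of fibroblasts and other mesenchymal cells, was at 20.6 and 9.31 CPM in ZKS cells, with 439 and 422 CPM in pericytes and 13.8 and 25.1 in sinusoids. The endothelial gene cdh5 was at 795 and 685 CPM in sinusoids and at most 4.42 CPM in the other niche libraries. These genes come from longer marker lists, whose other members did not all follow them. The endothelial gene kdrl was at 78.9 and 70.7 CPM in ZKS cells, with 34.3 and 92.9 in pericytes and 2950 and 2863 in sinusoids. PRRX1 (ENSDARG00000033971) was higher in ZKS cells, at 1077 and 943 CPM, than in pericytes, at 98.1 and 68.3 CPM. CXCL12, on the mural and stromal list, was at 25164 and 39651 CPM in sinusoids, with 855 and 665 in pericytes. RUNX1 was listed at 0 in both treated DP libraries, reached at most 0.1 CPM after co-culture and was at 6.3 and 6.1 CPM in uncultured cells, although the cells are labelled runx1+. The other gene of the label, GATA2 (ENSDARG00000059327), was above 0 in every DP library. It was at 319.8 and 9.1 CPM in treated, 33.1 and 127.9 CPM in co-cultured and 45.3 and 177.5 CPM in uncultured cells. The labels do not tie replicates to separate animals, and the spread behind each p-value may be technical.

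The invariant chain genes were near 0 in ZKS cells, high in pericytes and intermediate in sinusoids. cd74a (ENSDARG00000009087) was at 0.22 and 0.4 CPM in ZKS cells, with 2432 and 3251 CPM in pericytes and 172 and 214 in sinusoids. The 3 niche groups did not overlap, and the order was pericytes, sinusoids, ZKS cells. The mean was 0.31 ± 0.127 CPM in ZKS cells, with 2842 ± 579 CPM in pericytes and 193 ± 29.7 in sinusoids (SD, n = 2 each). In bulk samples fewer cells of a type and less RNA per cell cannot be told apart. The ZKS libraries held 6 cd74a reads together. The pooled reads were 9060-fold lower in ZKS cells than in pericytes (95% counting interval 4160 to 24700) and 622-fold lower than in sinusoids (286 to 1700). These intervals cover counting error only.

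The second zebrafish copy, cd74b (ENSDARG00000036628), followed the same order. It was at 0 and 0.2 CPM in ZKS cells, with 709 and 932 CPM in pericytes and 86 and 78.6 in sinusoids, again without overlap between groups. With 2 reads in ZKS cells, the pooled level was 7850-fold lower than in pericytes (2170 to 64900) and 784-fold lower than in sinusoids (217 to 6480). On the log2(CPM + 1) scale after TMM scaling, pericytes exceeded sinusoids by 4.03 ± 0.34 for cd74a and by 3.45 ± 0.31 for cd74b (SE). The ratio of cd74a to cd74b CPM was 3.43 and 3.49 in the pericyte libraries and 2.0 and 2.72 in the sinusoid libraries, so both pericyte libraries lay above both sinusoid libraries.

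The class II beta chain gene mhc2dab (ENSDARG00000079105) separated pericytes from both other niche groups. It was at 0 and 0.2 CPM in ZKS cells, with 87.2 and 85.3 CPM in pericytes and 0 and 0 in sinusoids. ZKS cells, with 2 reads, were 826-fold lower than pericytes (228 to 6830). Pericytes were at least 385-fold higher than sinusoids, taking 3 reads per library as the limit that a count of 0 allows. ZKS cells and sinusoids were both at or under that limit, and no fold is given between them. Sinusoids, the deepest niche libraries, thus held reads of both invariant chain genes but none of this beta chain gene. Other class II chain genes had reads there, such as mhc2d4b at 1.27 and 0.8 CPM and mhc2dhb at 16.1 and 0 CPM. How reads shared between copies were counted is not given in the sources used here.

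ciita (ENSDARG00000090851), whose mammalian counterpart is the transactivator of class II genes, was at 1.08 and 2.23 CPM in ZKS cells, with 19.6 and 31.6 CPM in pericytes and 8.9 and 2.77 in sinusoids. The groups did not overlap and had the order of cd74a. The log2 difference was -3.63 ± 0.59 for ZKS cells over pericytes, -1.37 ± 0.59 for ZKS cells over sinusoids and 2.26 ± 0.59 for pericytes over sinusoids (SE). The sinusoid libraries differed by more than 3-fold between themselves, and the lower of them lay close to the higher ZKS library.

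b2m (ENSDARG00000053136), the class I light chain gene, was detected throughout and had another order. It was at 306 and 421 CPM in ZKS cells, with 403 and 644 CPM in pericytes and 1031 and 1177 in sinusoids. Sinusoids lay above both other groups, whereas ZKS cells and pericytes overlapped. The log2 difference was -0.92 ± 0.38 for ZKS cells over pericytes, or -0.50 with the CPM as deposited. It was -1.87 ± 0.38 for ZKS cells over sinusoids and -0.95 ± 0.38 for pericytes over sinusoids. Its paralog b2ml was at 300 and 220 CPM in ZKS cells, with 815 and 874 CPM in pericytes and 1345 and 1554 in sinusoids, with no overlap.

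**Figure D1:**
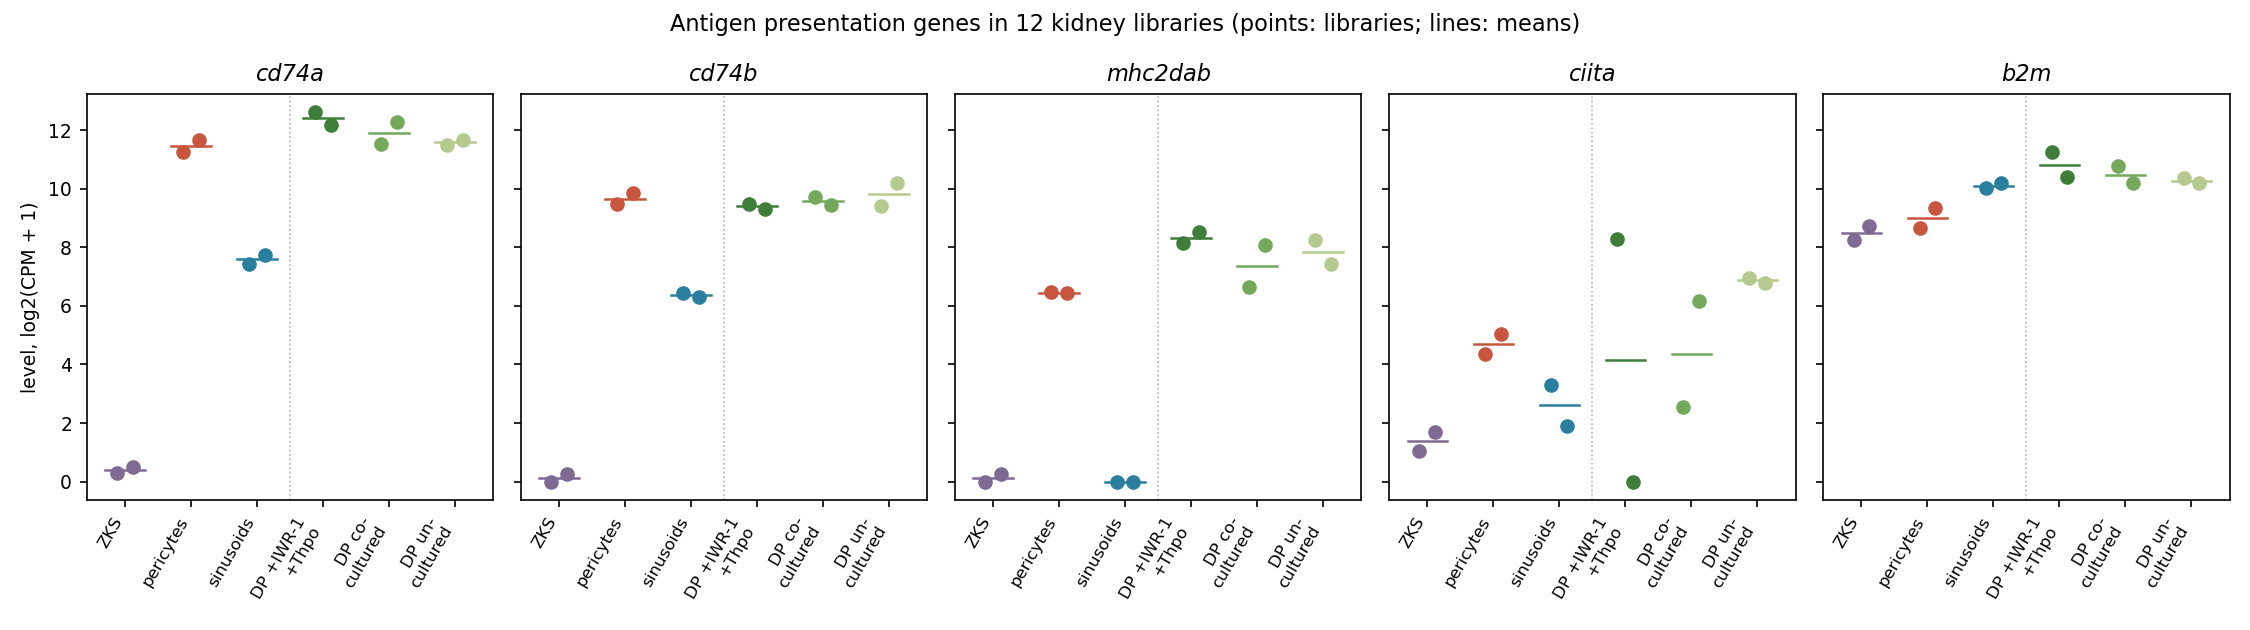
Level of each gene as log2(CPM + 1) in 12 libraries, with points for libraries and a line for the mean of each group of 2; niche groups stand left of the dotted line and DP groups right of it. cd74a, cd74b, mhc2dab and ciita peak in pericytes among the niche groups, whereas b2m is higher in both sinusoid libraries, at 1031 and 1177 CPM, than in the other 4 niche libraries.

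In the DP cells cd74a was high in every library. It was at 6314 and 4653 CPM with IWR-1-endo and Thpo, 2942 and 4987 CPM after co-culture alone and 2884 and 3262 CPM in uncultured cells. The treated libraries lay above both uncultured ones, and the co-cultured libraries overlapped both other groups. Treated cells exceeded uncultured cells by 0.64 ± 0.32 on the log2 scale (SE, 95% interval -0.16 to 1.43, limma adjusted p = 0.498). Co-cultured cells differed from uncultured cells by 0.25 (-0.55 to 1.05, limma adjusted p = 0.868), and treated from co-cultured cells by 0.38 (-0.41 to 1.18, limma adjusted p = 0.769). Each interval includes both no change and a change of more than 2-fold.

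cd74b was at 715 and 640 CPM in treated, 836 and 703 CPM in co-cultured and 680 and 1186 CPM in uncultured DP cells, and the 3 ranges overlapped. Its log2 difference was -0.59 for treated over uncultured cells (-1.57 to 0.39, limma adjusted p = 0.665), -0.30 for co-cultured over uncultured cells (-1.28 to 0.68, adjusted p = 0.872) and -0.30 for treated over co-cultured cells (-1.28 to 0.68, adjusted p = 0.838). The ratio of cd74a to cd74b was 8.83 and 7.27 in the treated libraries, 3.52 and 7.09 after co-culture alone, and 4.24 and 2.75 in uncultured cells. The treated libraries had the highest ratios of the set, a difference that was seen in the data and not tested.

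mhc2dab was at 282 and 363 CPM in treated, 100 and 267 CPM in co-cultured and 303 and 173 CPM in uncultured DP cells. Both treated libraries lay above both co-cultured ones, and uncultured cells overlapped each. The log2 differences were 0.30 for treated over uncultured (-1.58 to 2.18, limma adjusted p = 0.914), -0.55 for co-cultured over uncultured (-2.43 to 1.33, adjusted p = 0.88) and 0.85 for treated over co-cultured (-1.03 to 2.73, adjusted p = 0.769). ciita spread most, at 314 and 0 CPM in treated, 4.9 and 71.1 CPM in co-cultured and 123 and 110 CPM in uncultured cells. One treated library thus held the highest ciita value of the set and the other was listed at 0. The ciita log2 intervals were wide, from -10.12 to 4.38 for treated over uncultured (limma adjusted p = 0.761), -9.82 to 4.68 for co-cultured over uncultured (adjusted p = 0.845) and -7.55 to 6.95 for treated over co-cultured cells (adjusted p = 1).

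b2m was at 2464 and 1340 CPM in treated, 1759 and 1164 CPM in co-cultured and 1320 and 1164 CPM in uncultured DP cells. Both treated libraries lay above both uncultured ones, replicate 2 at 1340 CPM only just, and the co-cultured libraries overlapped both groups. The log2 differences were 0.37 for treated over uncultured (-0.52 to 1.25, limma adjusted p = 0.754), 0.14 for co-cultured over uncultured (-0.75 to 1.03, adjusted p = 0.961) and 0.23 for treated over co-cultured (-0.66 to 1.12, adjusted p = 0.869). Of the 5 genes, 0 were called in any DP comparison, and 0 at an unadjusted p under 0.05. Over all 8795 DP genes limma called 0 (0%) in each comparison, with 1183, 994 and 844 at an unadjusted p under 0.05 for treated over uncultured, co-cultured over uncultured and treated over co-cultured cells. The 3 comparisons share libraries in pairs.

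The other genes of the pathway were read from a list of 102 identifiers in 6 roles, of which 71 passed the filter of at least 1 CPM in at least 2 niche libraries. A gene was called at a limma adjusted p under 0.05 over all 15916 niche genes tested. A gene under 1 CPM in both ZKS libraries passed through pericyte or sinusoid libraries and could hardly be called higher in ZKS cells. The MHC genes are families of similar copies, and how reads shared between copies were counted is not given in the sources used here, so single copies are uncertain.

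Between ZKS cells and pericytes list genes were called in both directions. Among them 3 cathepsin S copies were lower in ZKS cells and 4 other cathepsins higher. Of 71 list genes 10 were higher and 21 lower in ZKS cells (43.7% called), beside 37.3% of all genes tested (14.7% higher and 22.6% lower). The list median log2 difference was -0.56 beside -0.19 over all genes (-0.56 and -0.17 with genes at 0 in a whole group set to their bound). With the CPM as deposited the medians were -0.16 and 0.10, and the share of all called genes that were higher was 51.2% in place of 39.5%. The list count was 14 without ZKS replicate 1 and 11 without ZKS replicate 2. In those fits the lone ZKS library is assumed to vary like the other groups.

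Of 15 class II chain identifiers 3 passed the filter, and 2 of these, mhc2bl and mhc2d4b, passed it only through the pericyte libraries. A gene that passes only through the group where it is high had to differ, so the direction of these chains is a description and no count over them is read as a result. The alpha chain gene mhc2daa was at 0 and 0 CPM in ZKS cells against 595 and 424 CPM in pericytes, at least 1570-fold lower (limma adjusted p = 5.97e-05). Against pericyte replicate 2 alone the mhc2daa bound was 1310-fold. mhc2bl was at 0 and 0 CPM against 6.14 and 5.44 CPM, at least 17.9-fold lower (adjusted p = 0.00181). mhc2d4b was at 0 and 0.1 CPM in ZKS cells against 9.13 and 27.5 CPM in pericytes (adjusted p = 0.00326).

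Class II processing genes moved both ways. Of 12 tested, 5 were lower and 4 higher in ZKS cells than in pericytes (75% called, beside 37.3% of all genes tested). The lower ones included 3 copies of cathepsin S, the enzyme that trims the invariant chain in mammals. ctss2.1 averaged 3.96 ± 0.7 CPM in ZKS cells, against 146 ± 27.5 CPM in pericytes (SD, n = 2 each, log2 difference -5.25 ± 0.37, limma adjusted p = 0.00022). ctss1 averaged 0.21 CPM in ZKS cells, against 45.6 CPM in pericytes (adjusted p = 0.00222). ctss2.2 was at 0 in ZKS cells, against 16.4 and 24.1 CPM in pericytes, at least 62.4-fold lower (adjusted p = 0.000765). The higher ones, named after their values were seen, were CTSB, CTSD, CTSH and CTSZ, lysosomal proteases with uses beyond antigen presentation. CTSD averaged 580 ± 42.8 CPM in ZKS cells, against 65.0 ± 2.57 CPM in pericytes (2.73 ± 0.53, adjusted p = 0.00834), and CTSZ averaged 748 ± 60.7 CPM in ZKS cells, against 131 ± 26 CPM in pericytes (2.1 ± 0.34, adjusted p = 0.00457). The call of CTSD was lost without ZKS replicate 2 and without either pericyte library (adjusted p 0.0515 to 0.0561). CTSH was not called without ZKS replicate 2 (0.078), and CTSB without any 1 of the 4 libraries (0.0875 to 0.221) or with no filter (0.0656). cd83, which steadies class II at the surface in mammals, averaged 0.615 CPM in ZKS cells, against 14.1 CPM in pericytes (adjusted p = 0.0153, but 0.0975 without ZKS replicate 1 and 0.0613 without ZKS replicate 2).

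Among class I chains, 4 of 13 were lower and 1 was higher in ZKS cells than in pericytes (38.5% called, near the 37.3% of all genes tested). b2ml was lower, at 260 ± 56.3 CPM in ZKS cells, against 845 ± 41.5 CPM in pericytes (log2 difference -2.12 ± 0.32, limma adjusted p = 0.00321), and so was mhc1zda, at 2.27 ± 0.919 CPM in ZKS cells, against 66.7 ± 53 CPM in pericytes (adjusted p = 0.00308). mhc1zaa was at 0 and 0 CPM in ZKS cells against 89.9 and 5.44 CPM in pericytes, at least 147-fold lower than the pericyte mean but at least 16.8-fold lower than pericyte replicate 2 alone (adjusted p = 0.0167, but 0.0587 with a pseudocount of 5). mhc1zca, which passed the filter only through the pericyte libraries, averaged 0.26 CPM in ZKS cells, against 5.08 CPM in pericytes (adjusted p = 0.00727), and the higher gene, mhc1zea, 117 ± 3.66 CPM against 33.1 ± 17.2 CPM (adjusted p = 0.0362). mhc1zaa, mhc1zca and mhc1zea were not called without either ZKS library (0.0711 to 0.16), nor mhc1zea without pericyte replicate 2 (0.163) or with no filter (0.0654). Of 20 class I loading genes 3 were higher in ZKS cells, all for chaperones of the endoplasmic reticulum (CANX, CALR and calr3b), and 2 lower (erap2 and psmb13a). The share called was 25%, below the 37.3% of all genes tested. CANX averaged 260 ± 81.7 CPM in ZKS cells, against 50.4 ± 34.1 CPM in pericytes (2.08 ± 0.48, adjusted p = 0.0161). CANX and calr3b missed the threshold without either ZKS library or without pericyte replicate 2 (0.0525 to 0.143). CALR, erap2 and psmb13a missed it without either ZKS library (0.0608 to 0.236) and without pericyte replicate 1 (0.0716 to 0.0971), and CALR and erap2 also without pericyte replicate 2 (0.0766 and 0.0587). erap2 further missed it with the CPM as deposited (0.144), with no filter (0.0551) and with edgeR (0.0501), and psmb13a with edgeR (0.0543).

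Of 19 regulators, 5 were lower and 2 higher in ZKS cells than in pericytes (36.8% called, near the 37.3% of all genes tested). NFYA (ENSDARG00000042004), a subunit of the factor that binds the CCAAT motif, was the higher one of largest size, at 24.5 and 11 CPM in ZKS cells against 0.43 and 0.57 CPM in pericytes (log2 difference 3.27 ± 0.54, limma adjusted p = 0.0048). It passed the filter only through the ZKS libraries, which fixes its direction. Among the lower ones, nlrc5, in mammals the class I counterpart of CIITA, averaged 0.415 CPM in ZKS cells, against 7.08 CPM in pericytes (adjusted p = 0.00675, but 0.0871 without ZKS replicate 1 and 0.0643 without ZKS replicate 2). irf1b, an interferon response factor gene, averaged 0.78 CPM in ZKS cells, against 7.29 CPM in pericytes (adjusted p = 0.0153), and was not called without either ZKS library or pericyte replicate 2 (0.0598 to 0.107) or with a pseudocount of 5 (0.0548). Among 4 genes of T cell help, cd28l was at 0 in both ZKS libraries and 113 and 161 CPM in pericytes, at least 423-fold lower in ZKS cells (adjusted p = 0.00016). Against pericyte replicate 1 alone the cd28l bound was 350-fold. The related cd28 passed the filter only through the pericyte libraries, which fixes its direction. cd28 was at 0 in both ZKS libraries and 3.0 and 10.17 CPM in pericytes, at least 20.3-fold lower in ZKS cells than the pericyte mean and at least 9.26-fold lower than pericyte replicate 1 alone (adjusted p = 0.0132, but 0.0964 and 0.0981 without either ZKS library).

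Against sinusoids nearly every list gene called was lower in ZKS cells. Of 71 genes 2 were higher and 31 lower (46.5% called), beside 31.6% of all genes tested (14.1% higher and 17.5% lower). The list median was -1.29 beside -0.09 over all genes (-1.36 and -0.05 with bounds, and -1.11 and 0.03 with the CPM as deposited). The list count was 17 without ZKS replicate 1 and 16 without ZKS replicate 2. Of the genes called higher, mhc1laa is a class I chain and NFYA (ENSDARG00000042004) a regulator of the list. mhc1laa averaged 24.2 ± 6.65 CPM in ZKS cells, against 6.4 ± 5.23 CPM in sinusoids (limma adjusted p = 0.0432, but 0.0734 with no filter and 0.0983 with edgeR). It missed the threshold without any 1 of 5 libraries, all but sinusoid replicate 1 (0.0585 to 0.276). NFYA averaged 17.8 ± 9.53 CPM in ZKS cells, against 0.855 ± 0.163 CPM in sinusoids (3.02 ± 0.54, limma adjusted p = 0.00682). This copy passed the filter only through the ZKS libraries, which fixes its direction. The other NFYA copy (ENSDARG00000001621) was at 2.27 and 2.02 CPM in ZKS cells and 2.99 and 0.8 CPM in sinusoids.

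Class I loading genes were mostly uncalled between ZKS cells and pericytes. Against sinusoids 11 of 20 were lower in ZKS cells and 0 higher (55% called, beside 31.6% of all genes tested). The peptide transporter gene tap2a averaged 0.31 ± 0.127 CPM in ZKS cells, against 29.3 ± 0.573 CPM in sinusoids (log2 difference -4.61 ± 0.76, limma adjusted p = 0.00481). tap2a and psmb12, another loading gene tested, passed the filter only through the sinusoid libraries, which fixes their direction. The peptide editor gene tapbpl averaged 1.59 ± 1.04 CPM in ZKS cells, against 42.0 ± 12.6 CPM in sinusoids (-4.23 ± 0.63, adjusted p = 0.00337), and the immunoproteasome subunit gene PSMB8 12.7 ± 1.27 CPM in ZKS cells, against 89.5 ± 3 CPM in sinusoids (-2.96 ± 0.41, adjusted p = 0.00252). psmb13a averaged 1.54 CPM in ZKS cells, against 31.5 CPM in sinusoids (adjusted p = 0.00228). Of 12 class II processing genes 7 were lower and 0 higher in ZKS cells (58.3% called, beside 31.6% of all genes tested). LGMN, an asparagine-specific lysosomal protease, averaged 558 ± 10.7 CPM in ZKS cells, against 10800 ± 1390 CPM in sinusoids (-4.52 ± 0.33, adjusted p = 0.000211). ctss2.1 was at 3.46 and 4.45 CPM in ZKS cells against 413 and 174 CPM in sinusoids (adjusted p = 0.000119), and ctss2.2 at 0 in ZKS cells against 38.7 and 34.2 CPM, at least 112-fold lower (adjusted p = 0.000417). cd83 averaged 0.615 CPM in ZKS cells, against 23.4 CPM in sinusoids (adjusted p = 0.0077, but 0.0552 without ZKS replicate 1).

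The class II alpha chain gene mhc2daa was absent from the ZKS libraries at this depth and stood at 11.4 and 13.9 CPM in sinusoids, so it was lower in ZKS cells by a factor of at least 39.1 (limma adjusted p = 0.000843). Among class I chains 3 of 13 were lower and 1 higher in ZKS cells (30.8% called, near the 31.6% of all genes tested). b2ml was lower (-2.74 ± 0.32, adjusted p = 0.00123). mhc1zaa was at 0 in ZKS cells, at least 101-fold lower than in sinusoids (adjusted p = 0.0142), and mhc1uca at 0, at least 24.9-fold lower (adjusted p = 0.00864). Against sinusoid replicate 1 alone the mhc1uca bound was 17.5-fold. mhc1uca passed the filter only through the sinusoid libraries, which fixes its direction. mhc1zaa was not called without any 1 of the 4 libraries compared (0.0531 to 0.0725) or with a pseudocount of 5 (0.0558), nor mhc1uca without either ZKS library (0.0782 and 0.081). Of 19 regulators 1 was higher and 7 were lower in ZKS cells (42.1% called, beside 31.6% of all genes tested). The lower ones included ifngr1, which passed the filter only through the sinusoid libraries, so its direction was fixed. Among these, irf1b averaged 0.78 CPM in ZKS cells, against 26.4 CPM in sinusoids (adjusted p = 0.00257), and JAK1, a kinase of cytokine receptors, 0.82 CPM against 21.4 CPM (adjusted p = 0.00281). ifngr1, a chain of the interferon gamma receptor, was at 0 in ZKS cells, against 19.9 and 7.45 CPM in sinusoids, a fold of at least 42.2 lower in ZKS cells, or of at least 23 against sinusoid replicate 2 alone (limma adjusted p = 0.0111, but 0.0755 without ZKS replicate 1 and 0.0779 without ZKS replicate 2). cd40 averaged 35.0 ± 14.4 CPM in ZKS cells, against 130 ± 32.6 CPM in sinusoids (adjusted p = 0.01, but 0.0869 without ZKS replicate 2). cd28l, at 0 in ZKS cells, was at least 10.5-fold lower than in sinusoids (adjusted p = 0.013, but 0.0906 and 0.0919 without either ZKS library and 0.121 with a pseudocount of 5).

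Between pericytes and sinusoids, the class I loading genes and most lysosomal proteases called were lower in pericytes, and the alpha chain gene mhc2daa was higher. Of 71 list genes 8 were higher and 21 lower in pericytes (40.8% called), beside 25.5% of all genes tested (15.3% higher and 10.2% lower). The list median was -0.90 beside 0.00 over all genes (-1.06 and -0.12 with the CPM as deposited). The list count was 16 without pericyte replicate 2 and 16 without sinusoid replicate 2, 19 in a fit of these 4 libraries alone and 12 with edgeR on recovered reads. Of the genes named for this comparison mhc2bl, ctss1, MARCHF8, mhc1zda, mhc1zca, tap2a, psmb12, tapbpl, ifngr2 and cd40 were not called with edgeR (adjusted p 0.0556 to 0.219), nor ctss1, mhc1zda, mhc1zca, tapbpl and cd40 with no filter (limma adjusted p 0.0512 to 0.0921).

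Among class II chains mhc2daa, which passed the filter in pericytes and in sinusoids, was at 595 and 424 CPM in pericytes against 11.4 and 13.9 CPM in sinusoids (log2 difference 5.37 ± 0.39, limma adjusted p = 0.000372). The other 2 tested, mhc2d4b and mhc2bl, passed it only through the pericyte libraries, which fixes their direction. mhc2d4b was at 9.13 and 27.5 CPM in pericytes against 1.27 and 0.8 CPM in sinusoids (3.24 ± 0.63, adjusted p = 0.0118, or 0.0537 without sinusoid replicate 2). mhc2bl was at 6.14 and 5.44 CPM in pericytes against 0.15 and 0 CPM in sinusoids, a ratio of 85.7 (23 to 720) on 2 sinusoid reads (adjusted p = 0.00297). Another 3 class II genes that did not pass the filter stood the other way in a single library: mhc2dga, mhc2dgb and mhc2dhb were at 4.49, 6.36 and 16.1 CPM in sinusoid replicate 1 and at 0 in sinusoid replicate 2. These 3 were chosen after their values were seen.

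Of 20 class I loading genes 12 were lower in pericytes and 0 higher (60% called, beside 25.5% of all genes tested). Of these, tap2a and psmb12 passed the filter only through the sinusoid libraries, which fixes their direction. PSMB8 averaged 16.4 ± 7.95 CPM in pericytes, against 89.5 ± 3 CPM in sinusoids (log2 difference -2.31 ± 0.41, limma adjusted p = 0.0088). tap2a was at 0 and 2.86 CPM in pericytes against 29.7 and 28.9 CPM in sinusoids (-3.90 ± 0.76, adjusted p = 0.012, or 0.058 without sinusoid replicate 2). psmb12, a proteasome subunit gene, was at 0 and 0.86 CPM in pericytes against 15.1 and 8.93 CPM in sinusoids (-3.19 ± 0.56, adjusted p = 0.00823). tapbpl was at 3.71 and 11.9 CPM in pericytes against 50.9 and 33.1 CPM in sinusoids (adjusted p = 0.0391), and missed the threshold without any 1 of 5 libraries, all but pericyte replicate 2 (0.0651 to 0.111). b2m, with its lower level in pericytes, stood on the side of these genes.

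Class II processing genes were mostly on the sinusoid side, with 6 of 12 lower and 2 higher in pericytes (66.7% called, beside 25.5% of all genes tested). LGMN was at 356 and 287 CPM in pericytes against 9841 and 11801 CPM in sinusoids (log2 difference -4.91 ± 0.33, limma adjusted p = 0.000264). CTSH averaged 22 ± 18.6 CPM in pericytes, against 314 ± 64 CPM in sinusoids (-3.90 ± 0.64, adjusted p = 0.00651), and CTSD 65.0 ± 2.57 CPM in pericytes, against 791 ± 469 CPM in sinusoids (-3.29 ± 0.53, adjusted p = 0.00602). The 2 higher genes were ctss1 and MARCHF8, whose mammalian counterpart tags class II for breakdown. ctss1 was at 61.5 and 29.6 CPM in pericytes against 18.7 and 3.08 CPM in sinusoids (adjusted p = 0.0482), and it missed the threshold without any 1 of 5 libraries, all but sinusoid replicate 1 (0.0839 to 0.181). MARCHF8 averaged 27.0 ± 2.08 CPM in pericytes, against 8.29 ± 0.75 CPM in sinusoids (adjusted p = 0.0284) and missed it without each single library (0.0593 to 0.0937).

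Among 13 class I chains mhc1zda and mhc1zca were called higher in pericytes and 0 lower (15.4% called, below the 25.5% of all genes tested). mhc1zca passed the filter only through the pericyte libraries, which fixes its direction. mhc1zda was at 29.3 and 104 CPM in pericytes against 8.23 and 8.13 CPM in sinusoids (log2 difference 2.78 ± 0.66, limma adjusted p = 0.0239, or 0.0763 to 0.0821 without pericyte replicate 2 or either sinusoid library). mhc1zca was at 6.71 and 3.44 CPM in pericytes against 0.6 and 0.49 CPM in sinusoids (adjusted p = 0.0178, or 0.0614 to 0.0739 without either ZKS library or sinusoid replicate 2). Of 19 regulators 2 were lower in pericytes (10.5% called, below the 25.5% of all genes tested). One of them, ifngr2, averaged 20.5 ± 1.97 CPM in pericytes, against 46.6 ± 9.11 CPM in sinusoids (adjusted p = 0.0477), and missed the threshold without each single library (0.0691 to 0.146), with a filter of 10 CPM (0.0693), in the 4 libraries alone (0.144) and with DESeq2 (0.276). In T cell help, cd28l was higher in pericytes, at 113 and 161 CPM against 3.89 and 2.89 CPM in sinusoids (5.13 ± 0.46, adjusted p = 0.000763), and cd40, a receptor for T cell help on antigen-presenting cells, was lower, at 41.8 and 33.5 CPM against 107 and 153 CPM. The cd40 call (adjusted p = 0.036) was lost without any 1 of 5 libraries, all but sinusoid replicate 1 (0.057 to 0.141).

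**Figure D2:**
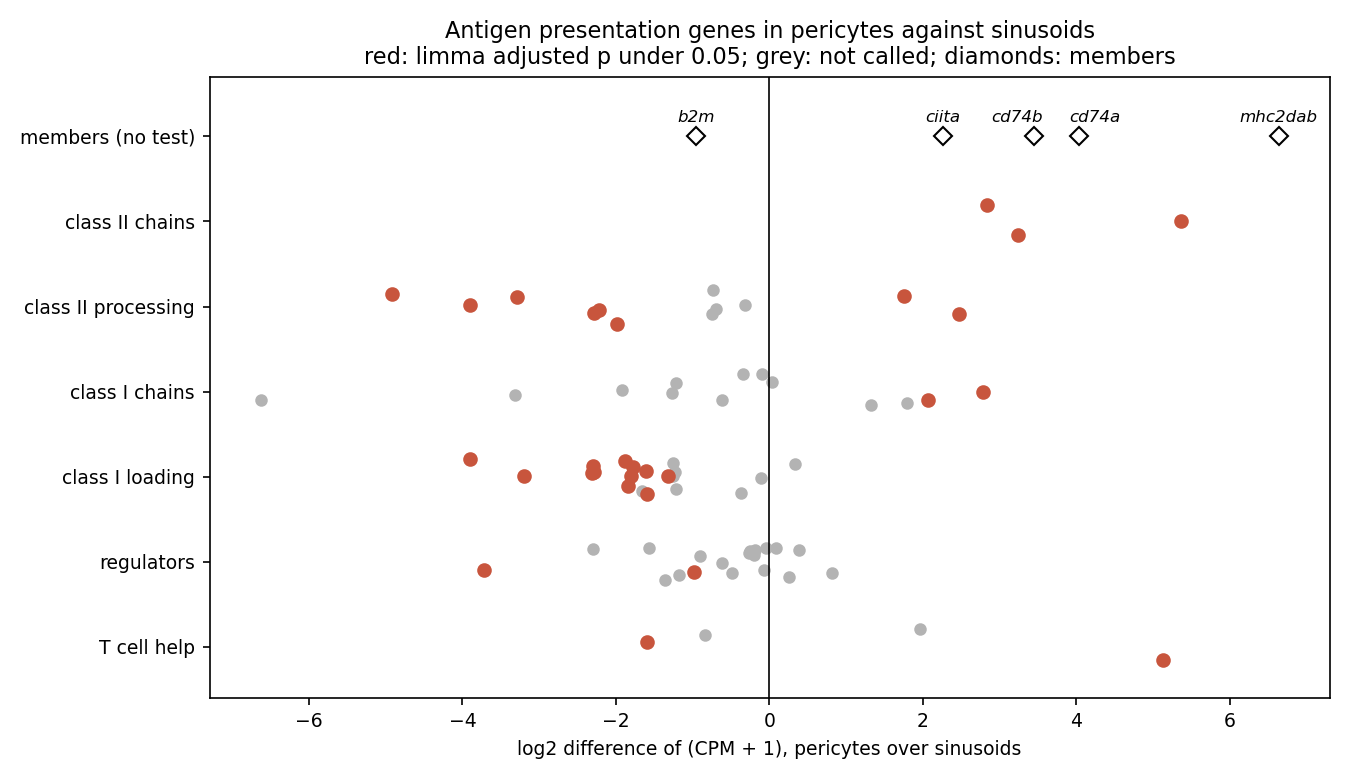
Log2 difference of (CPM + 1) for pericytes over sinusoids, by role, with red points for genes called by limma, grey points for genes not called and open diamonds for the 5 members, which have no test. The 12 called class I loading genes lie left of 0, and of these tap2a and psmb12 passed the filter only through sinusoids. Of the 3 class II chains right of 0, 2 passed it only through pericytes. Genes at 0 in a group, such as mhc2dab in sinusoids, are placed by the pseudocount.

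Markers of other cell types moved with the class II genes between some groups and against them between others. Most leukocyte markers were near 0 in the ZKS libraries. Of 19 macrophage markers tested 0 were higher and 11 lower in ZKS cells than in pericytes, beside 14.7% and 22.6% of all genes tested. Against sinusoids 0 were higher and 12 lower in ZKS cells, beside 14.1% and 17.5%. The MFAP4 copies in these counts passed the filter only through the group compared with ZKS cells, which fixes their direction. Of the other genes called in both comparisons, MPEG1, marco, spi1a, IRF8, havcr1 and cybb were under 1 CPM in both ZKS libraries. These passed it through pericytes and sinusoids and could hardly be called higher in ZKS cells. The counts are therefore a description. MPEG1, a macrophage gene, was at 0.22 and 0.2 CPM in ZKS cells, with 18.7 and 10.02 CPM in pericytes and 145 and 259 in sinusoids. IRF8, a myeloid transcription factor gene, was at 0 and 0.2 CPM in ZKS cells, with 58.1 and 97.4 CPM in pericytes and 227 and 637 in sinusoids. Both markers were therefore lower in pericytes than in sinusoids, the opposite of cd74a. Not all of the list did so. The macrophage marker SPI1 overlapped, at 57.4 and 28.6 CPM in pericytes and 76.8 and 29.8 in sinusoids. AIF1L was higher in pericytes, at 98.6 and 64.7 CPM against 52.0 and 35.6 CPM in sinusoids.

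The whole list of 27 macrophage identifiers came to a total of 107 and 107 CPM in ZKS cells (most of it AIF1L, at 82.1 and 70.7 CPM), with 1149 and 1392 CPM in pericytes and 1269 and 1689 in sinusoids. Its 8 copies named MFAP4 made up 689 and 1010 CPM of the pericyte sums against 28.0 and 60.8 CPM of the sinusoid sums. Without them, a choice made after seeing the data, the sums were 106 and 106 CPM in ZKS cells, with 460 and 385 CPM in pericytes and 1240 and 1630 in sinusoids. Of 19 tested, 3 were higher and 6 lower in pericytes than in sinusoids, beside 15.3% and 10.2% of all genes tested. The higher count was thus near its share over all genes. MFAP4 copies were 2 of the 3 higher, and AIF1L was the other. These 2 copies passed the filter only through the pericyte libraries, which fixes their direction. The MFAP4 copies among the lower genes passed it only through the sinusoid libraries, which fixes theirs.

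B cell markers, 13 identifiers, came to 10.4 and 6.26 CPM in ZKS cells, with 144 and 102 CPM in pericytes and 308 and 254 in sinusoids, and in pericytes and sinusoids most of it was ighm, the heavy chain gene of IgM. ighm was at 0 and 0 CPM in ZKS cells, with 102 and 64.7 CPM in pericytes and 223 and 200 in sinusoids, and the B cell receptor gene cd79a at most 1.21 CPM in ZKS cells and pericytes. Of 10 tested, 2 were higher and 3 lower in pericytes than in sinusoids, beside 15.3% and 10.2% of all genes tested. The higher ones were 2 copies of EBF1, at 10.7 to 16.0 CPM in pericytes and at most 1.79 CPM in sinusoids. Among the 3 lower, igic1s1 passed the filter only through the sinusoid libraries, which fixes its direction. Dendritic markers, 10 identifiers, came to 88.0 and 104 CPM in ZKS cells, with 101 and 142 CPM in pericytes and 131 and 117 in sinusoids. In ZKS cells and pericytes most of it was ID2, at 82.8 and 99.5 CPM in ZKS cells and 75.5 and 130 CPM in pericytes. ID2 was at 47.1 and 29.1 CPM in sinusoids. HLX was at 1.08 and 1.32 CPM in ZKS cells, with 8.42 and 7.73 CPM in pericytes and 68.5 and 73.9 in sinusoids. Of 6 tested, 1 (ID2) was higher and 1 (HLX) lower in pericytes than in sinusoids, beside 15.3% and 10.2% of all genes tested. Counts of 1 are not read as a result. flt3 was at 0 in ZKS cells and pericytes. ptprc, the pan-leukocyte gene CD45, was at 0.76 and 0.91 CPM in ZKS cells, with 58.7 and 66.9 CPM in pericytes and 237 and 118 in sinusoids. Neutrophil markers came to 0.54 and 1.62 CPM in ZKS cells, with 1029 and 714 CPM in pericytes and 3217 and 1153 in sinusoids, and T and NK cell markers to 3.89 and 4.96 CPM, 50.1 and 32.2 CPM, and 67.7 and 92.9 CPM in the same groups. Erythroid markers came to 134 and 166 CPM in ZKS cells (most of it cahz, at 112 and 142 CPM), with 556 and 751 CPM in pericytes and 3542 and 1320 in sinusoids. Of 13 tested 9 were lower in ZKS cells than in pericytes, beside 22.6% of all genes tested. Against sinusoids 11 were lower in ZKS cells, beside 17.5%, and 5 lower in pericytes, beside 10.2%. Among the 11, gata1a passed the filter only through the sinusoid libraries, which fixes its direction. hbaa1, hbaa2, SLC4A1, klf1 and nt5c2l1 were under 1 CPM in both ZKS libraries and could hardly be called higher there. The erythroid counts against ZKS cells are therefore a description. Most leukocyte markers and the class II genes were thus near 0 in ZKS cells, and the part of other cells in the pericyte and sinusoid levels was not tested.

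**Figure D3:**
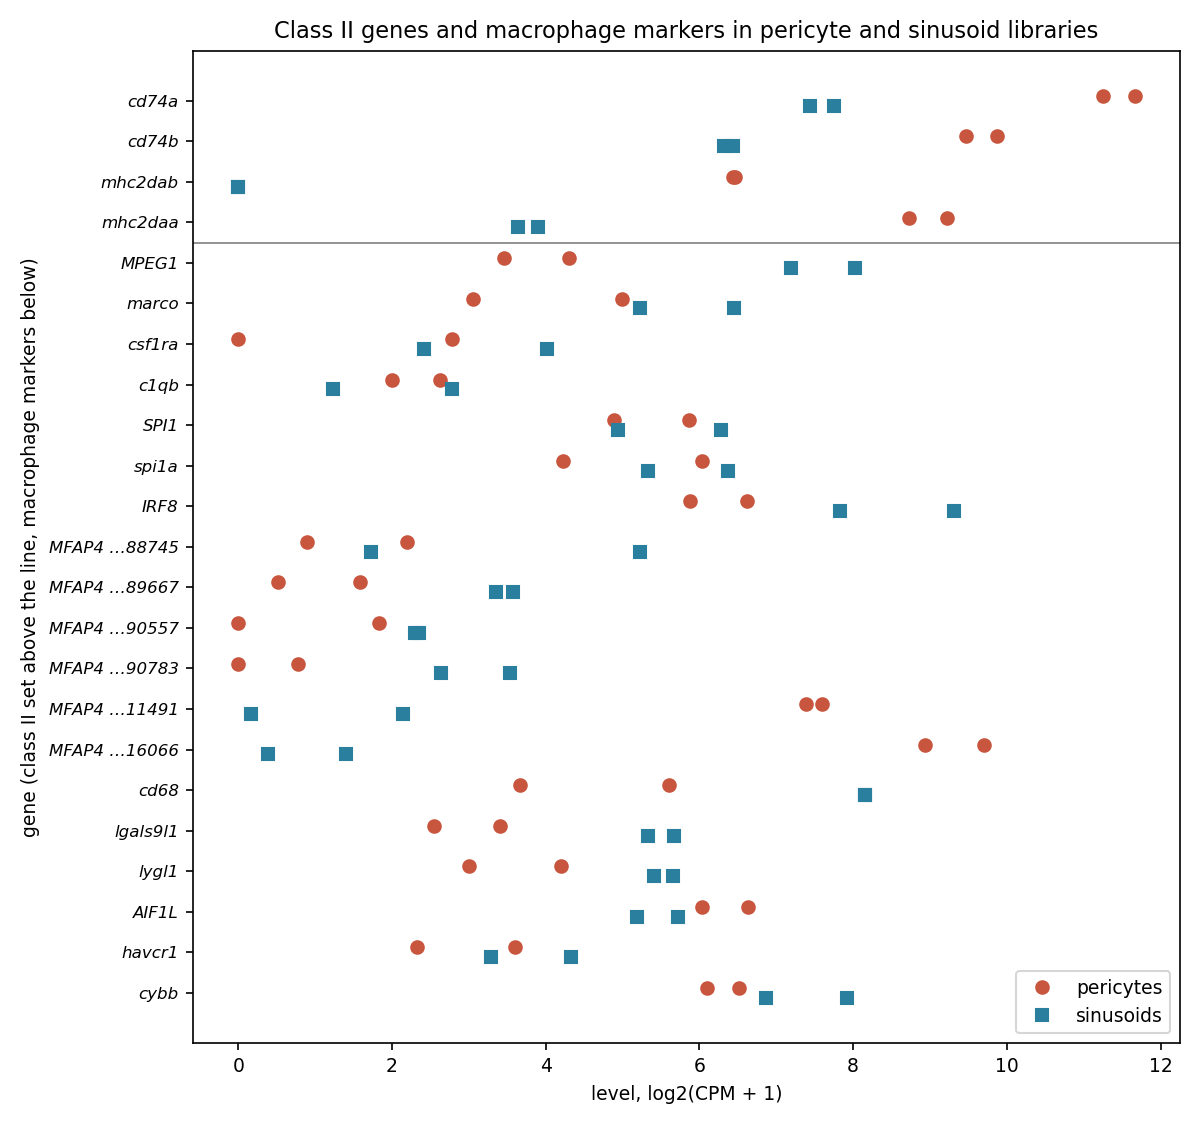
Level as log2(CPM + 1) of class II genes (above the line) and of macrophage markers with at least 1 CPM in 2 niche libraries (below it), with circles for pericyte and squares for sinusoid libraries. The class II genes lie higher in pericytes, whereas MPEG1, IRF8 and cd68 lie higher in sinusoids. AIF1L lies higher in pericytes, SPI1 overlaps and MFAP4 copies go either way.

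Over the 6 niche libraries, correlation with cd74a was ranked among 5119 genes with at least 50 CPM in a library. The highest were LIPA, JUN, krt94, foxo3b and SESN1 (Pearson r of log2 values 0.998 each) and FOSB, FOS and prg4b (0.997). Pearson r does not measure the size of a difference. LIPA was at 68.4 and 68.4 CPM in ZKS cells, with 158 and 161 CPM in pericytes and 113 and 123 in sinusoids. JUN was at 188 and 179 CPM in ZKS cells, with 15957 and 15573 CPM in pericytes and 2612 and 3026 in sinusoids. krt94 was at 0.86 and 0.81 CPM in ZKS cells, with 10102 and 10790 CPM in pericytes and 335 and 333 in sinusoids. The correlation with cd74a was 1.000 for cd74b, 0.963 for mhc2daa, 0.895 for ciita, 0.755 for mhc2dab and 0.448 for b2m. These values share libraries and rest on 3 groups of 2, and no test was made of them. In the DP set krt94 and prg4b were listed at 0 in all 6 libraries while cd74a was at 2884 CPM or more. The rest of these 8 genes were above 0 in some or all DP libraries. SESN1 was at 151 to 406 CPM and foxo3b at 19.9 to 336 CPM over the 6.

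**Figure D4:**
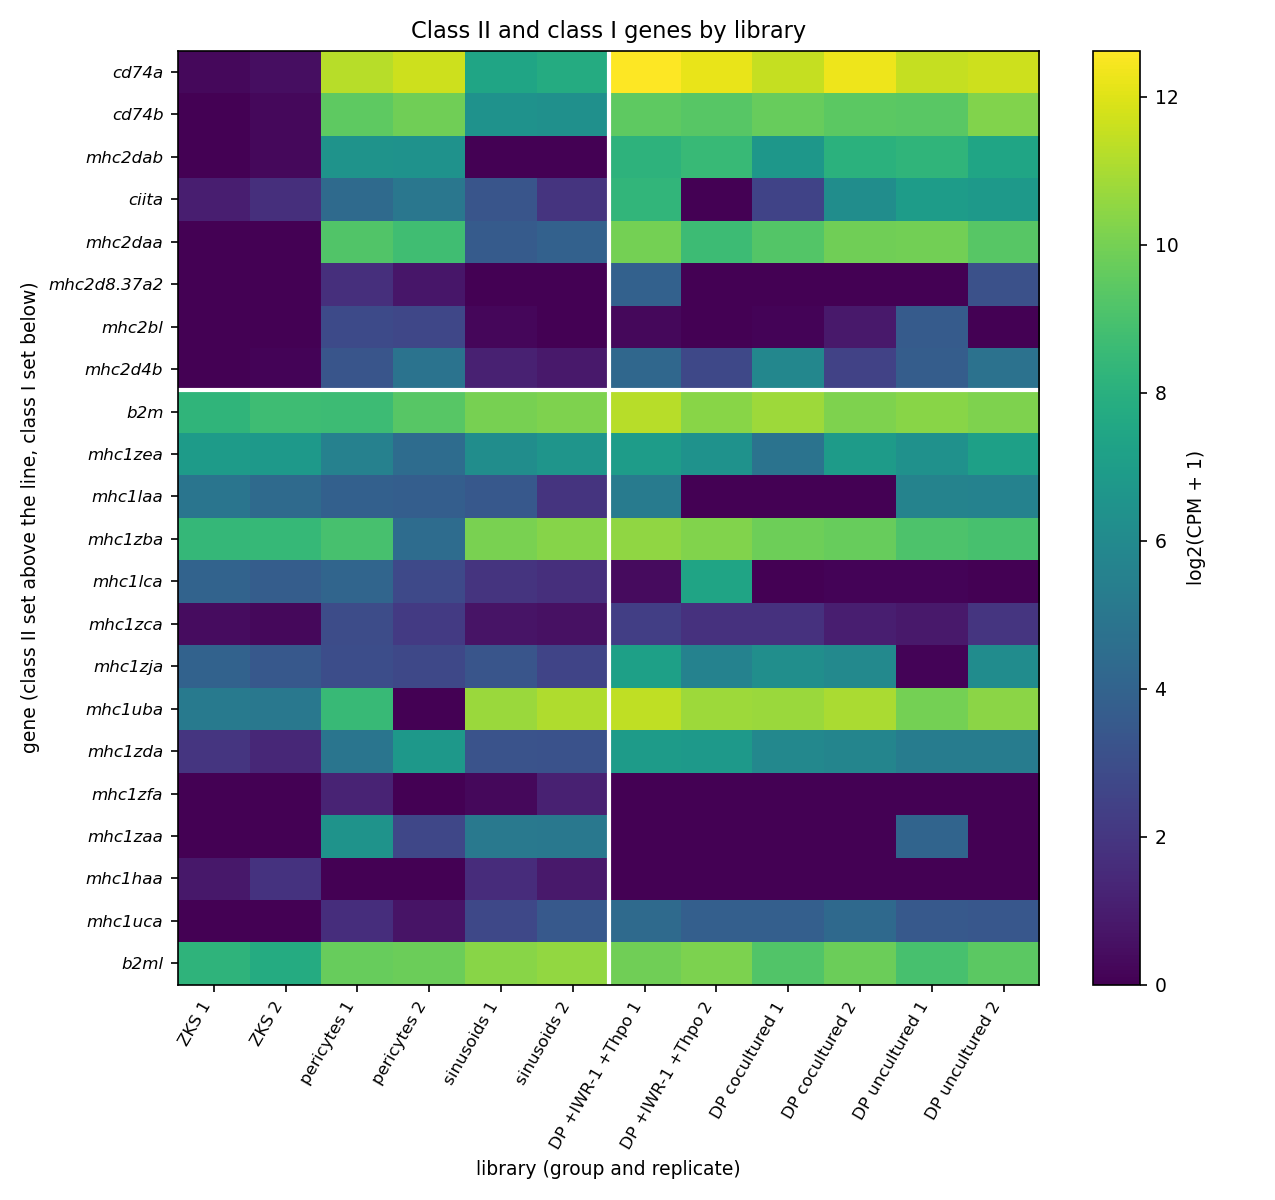
Log2(CPM + 1) of class II genes (above the white line) and class I genes (below it) with at least 1 CPM in 2 libraries, in 12 libraries; the vertical line parts the niche and DP sets, which were fitted separately. cd74a, cd74b, mhc2dab and mhc2daa are near 0 in ZKS cells and high in every pericyte and DP library, and mhc1uba is at 358 CPM in pericyte replicate 1 and at 0 in pericyte replicate 2.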

How the data were processed

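RNA from sorted cells was amplified by Quartz-seq and sequenced, per the labels' protocols; no molecular identifiers are described. Per the submitters' processing notes, HISAT2 2.1.0, Subread 1.6.4 and build GRCz11 were used. In what order, with which settings and with what treatment of reads shared by gene copies is not given in the sources used here. For each library, CPM of 32047 identifiers were deposited by the authors. A gene name table gave 28978 of them a symbol, often a capital one that several copies share. Niche CPM were multiples of 1 read in 100% of values, within a tolerance of 0.1 read, which gave depths and a floor of 3 reads per library (0.185 to 0.43 CPM). Floors and intervals cover counting error only. A fold given as at least some size uses the mean of the higher group, unless a library is named. DP values had no readable step.

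Each set of 6 libraries was fitted separately with limma 3.58.1 in R 4.3.3 (trended, two-sided, no covariate, 3 residual degrees of freedom) on log2(CPM + 1), scaled by TMM factors from edgeR 4.0.16. This scale understates changes of low genes. The filter of at least 1 CPM in 2 or more libraries left 15916 niche and 8795 DP genes. Benjamini-Hochberg adjustment ran over all of them, with a threshold of 0.05. Alternatives were pseudocounts of 0.5 and 5, no filter or 10 CPM, CPM as deposited, a replicate block, the 4 libraries compared alone, each library left out, and, for the niche set, edgeR and DESeq2 1.42.0 on recovered reads.

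The members, gene lists, marker lists and tests were chosen with earlier results of these data known. Named list genes are up to 4 called genes of largest change per role and comparison, and genes like cd74a the 8 of highest Pearson r. Some other genes are marked as chosen later. A few more were named outside this rule without such a mark, among them MARCHF8, mhc1zea, CALR and, against sinusoids, NFYA. A gene that the rule selects is not reported here. Members have no p in niche comparisons.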

Additional observations from a re-analysis of the deposited data

How the results depend on the processing

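In pericytes against sinusoids the list count of 29 became 19 in a fit of the 4 libraries and 12 with edgeR, and the count over all genes of 4054 became 2347 and 1226. Leaving out 1 library gave list counts of 11 to 33 for ZKS cells against pericytes, 16 to 42 for ZKS cells against sinusoids and 16 to 27 for pericytes against sinusoids, and counts over all genes of 1852 to 6830, 1765 to 5616 and 1964 to 3837. No label says that replicate numbers pair libraries, and deviations of same-numbered libraries correlated at 0.064, 0.023 and -0.006 in the niche set and 0.001, -0.004 and -0.01 in the DP set. With the replicate block the counts over all genes were 5816, 4902 and 3806, and of the named genes ifngr2 in pericytes against sinusoids was no longer called (adjusted p = 0.0723). All DP counts were 0 under every alternative run. Scaling mattered for medians: with the CPM as deposited the median over all genes was 0.10 in place of -0.19, 0.03 in place of -0.09, -0.12 in place of 0.00 and, for treated over uncultured DP cells, -0.51 in place of -0.63. Some member differences in DP cells changed sign, each from a difference that passed no threshold, and the cause was not tested. The range over single libraries left out follows each. Treated over uncultured, they were mhc2dab at -0.12 without uncultured replicate 2 (-0.12 to 0.73), b2m at -0.05 without treated replicate 1 (-0.05 to 0.78) and ciita at 1.22 without treated replicate 2 (-6.94 to 1.22). Co-cultured over uncultured, they were cd74a at -0.18 without co-cultured replicate 2 (-0.18 to 0.69), cd74b at 0.11 without uncultured replicate 2 (-0.66 to 0.11), and, without co-cultured replicate 1, mhc2dab at 0.21 (-1.30 to 0.21) and b2m at -0.10 (-0.10 to 0.39). Treated over co-cultured, they were cd74a at -0.05 without co-cultured replicate 1 (-0.05 to 0.81), b2m at -0.18 without treated replicate 1 and -0.02 without co-cultured replicate 2 (-0.18 to 0.64), and ciita at 0.45 with a pseudocount of 5, 3.79 without treated replicate 2 and 1.54 without co-cultured replicate 2 (-4.36 to 3.79). The DP intervals give the sizes of change that were not resolved, and the unknown DP depth gives no limit for a gene listed at 0.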

Other observations

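Some class I heavy chain genes differed widely between the pericyte replicates. mhc1uba was at 35.1 and 32.2 CPM in ZKS cells, with 358 and 0 CPM in pericytes and 1706 and 2202 in sinusoids. Among 1569 genes with at least 100 CPM in a pericyte library, mhc1uba was the only 1 at 0 in the other, beside 0 of 1919 in ZKS cells and 7 of 1830 in sinusoids. mhc1zba was at 344 and 355 CPM in ZKS cells, with 501 and 21.3 CPM in pericytes and 1068 and 1277 in sinusoids, and mhc1zaa at 0 in both ZKS libraries, at 89.9 and 5.44 CPM in pericytes and at 33.2 and 32.5 CPM in sinusoids. mhc1zda went the other way, at 29.3 and 104 CPM in pericytes. Between the same libraries cd74a was at 2432 and 3251 CPM and mhc2dab at 87.2 and 85.3 CPM. These genes were picked after their values were seen.

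Such gaps were more frequent in the DP set, where 551 of 2662 genes in treated, 342 of 2426 in co-cultured and 76 of 2045 in uncultured cells reached 100 CPM in a library and were listed at 0 in the other. In that set mhc1uba was at 2694 and 1732 CPM in treated, 1667 and 2074 CPM in co-cultured and 1007 and 1370 CPM in uncultured cells. The alpha chain gene mhc2daa was at 1002 and 404 CPM in treated, 600 and 938 CPM in co-cultured and 965 and 658 CPM in uncultured DP cells, with overlapping groups. In the DP fit 5, 8 and 5 of 58 list genes had an unadjusted p under 0.05 for treated over uncultured, co-cultured over uncultured and treated over co-cultured cells, and 0 passed the adjustment.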
